A study of Mus musculus with 7 samples.

Results

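The 10 genes described here, Acta2, Tagln, Cnn1, Fap, Thy1, Lrrc15, Postn, Tnc, Cthrc1 and S100a4, are genes by which activated fibroblasts and myofibroblasts are commonly recognised in tumors. They were taken by symbol from the mouse GENCODE M21 annotation, and each matched 1 Ensembl gene among the 46603 genes counted in the tumors. A fibroblast that is activated by TGF-beta or by tension makes more extracellular matrix, and when it also builds contractile actin filaments it is called a myofibroblast. Acta2, Tagln and Cnn1 belong to that contractile apparatus and are also made by vascular smooth muscle and pericytes (mural cells). Fap, Thy1 and Lrrc15 sit on the cell surface. Postn, Tnc and Cthrc1 are secreted into the matrix, and S100a4 is a calcium-binding protein also called fibroblast-specific protein, although leukocytes make it too.

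RNA-seq counts came from tumors grown in immunodeficient female Balb/c nude mice, 16 weeks of age, from injected mouse embryonic fibroblasts. In the NM1 KO group (3 libraries) the cells lacked nuclear myosin 1 (NM1), the nuclear isoform encoded by Myo1c, after CRISPR/Cas9 deletion. In the KO+NM1 group (4 libraries) the same KO cells carried a lentiviral NM1 with HA and V5 tags, selected with neomycin and grown from single clones. Every tumor therefore came from cells carrying the deletion. The labels describe 1 tumor per condition cut into 4 pieces at the end of a 30-day cycle, so the libraries are called pieces here, and each SD and p-value measures the spread between pieces, which may be technical. Nude mice lack mature thymus-derived T cells but keep B cells, macrophages and their own fibroblasts, and reads from injected and host mouse cells cannot be separated.

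Total counts per library ranged from 24088309 to 28326568, so that 3 counts, the most that a count of 0 allows for, correspond to between 0.0991 and 0.148 CPM. CPM are counts scaled to a common, TMM-normalized library size, and the floor covers counting error only. Myo1c read 289.0 to 312.5 CPM in the KO pieces and 381.6 to 438.0 CPM in the KO+NM1 pieces, but gene-level counts do not separate the NM1 isoform. Mitochondrial genes took 1.81% to 2.14% of counts in KO and 5.11% to 18.5% in KO+NM1, without overlap. With these genes left out before normalization, the calls of the 10 genes described here were the same. Marker lists of other cell types also differed between the tumors. The summed CPM of 10 skeletal muscle genes was 2646 to 21540 in KO and 6.97 to 25.9 in KO+NM1, that of 10 white adipocyte genes was 122 to 327 in KO and 4585 to 33410 in KO+NM1, and that of 8 macrophage genes was 2263 to 2589 in KO and 418 to 574 in KO+NM1. KO+NM1 piece 01 stood apart: its 5 B cell genes summed to 4125 CPM, against 3.00 to 16.95 CPM in the other KO+NM1 pieces. In bulk tissue, fewer cells of a type and less RNA of a gene per cell cannot be told apart.

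All 10 genes passed the filter on low counts and were tested. A gene was called where the edgeR quasi-likelihood test, KO against KO+NM1, gave an adjusted p under 0.05 and a difference of at least 2-fold. Lrrc15, Tnc and Cthrc1 were called higher in KO, and Acta2, Tagln, Cnn1 and Fap were called lower. Thy1, Postn and S100a4 were not called. Of all 16887 genes tested, 17.1% were called higher and 20.3% lower, so calls in both directions were common in this comparison, and the 7 calls among the 10 genes stand beside 37.3% for all genes, or 50.2% by adjusted p alone. The pieces of the groups did not overlap for the same 7 genes, with KO above for 3 and below for 4. Over all genes tested, 30.5% had every KO piece above every KO+NM1 piece and 26.4% had every KO piece below, which together make 57.0%. The median log2 fold change of the 10 genes was -0.42, beside -0.002 for all genes tested.

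**Figure D1:**
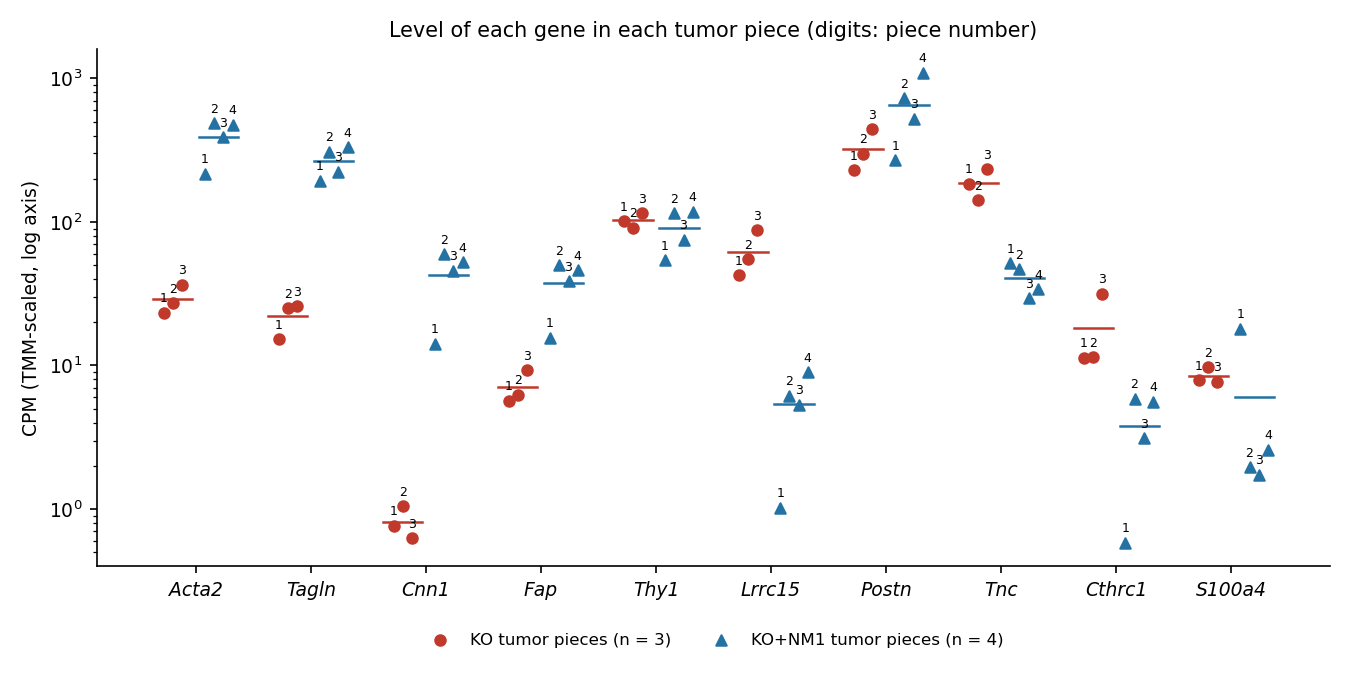
Level of each of the 10 genes in each piece (CPM, log axis), with KO and KO+NM1 pieces as separate points labelled by piece number, and a bar at the group mean. The KO points lie below all KO+NM1 points for Acta2, Tagln, Cnn1 and Fap, above them for Lrrc15, Tnc and Cthrc1, and among them for Thy1, Postn and S100a4.

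Promoter sequences were examined for motifs of factors known to act on contractile and activation genes. Serum response factor binds CArG boxes in smooth muscle promoters, TEAD factors bind M-CAT motifs, and AP-1 factors bind a palindromic site. RefSeq windows on GRCm38.p6, from 250 bases before to 50 bases after a transcription start, existed for 6 of the 10 genes (Acta2, Cnn1, Lrrc15, Postn, Tnc and S100a4). The windows of Acta2 (chr19:34255324-34255623, minus strand) and Lrrc15 (chr16:30283205-30283504, minus strand) are shown because these genes moved in opposite directions and were the only ones with a motif hit. Capitals mark the motifs, and each sequence runs 5′ to 3′ along the gene's strand.
Acta2: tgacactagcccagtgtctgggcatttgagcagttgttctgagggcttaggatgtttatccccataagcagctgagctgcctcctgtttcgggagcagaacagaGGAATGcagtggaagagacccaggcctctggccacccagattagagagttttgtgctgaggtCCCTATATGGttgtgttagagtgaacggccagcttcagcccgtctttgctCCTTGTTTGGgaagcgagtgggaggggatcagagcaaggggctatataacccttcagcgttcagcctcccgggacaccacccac
Lrrc15: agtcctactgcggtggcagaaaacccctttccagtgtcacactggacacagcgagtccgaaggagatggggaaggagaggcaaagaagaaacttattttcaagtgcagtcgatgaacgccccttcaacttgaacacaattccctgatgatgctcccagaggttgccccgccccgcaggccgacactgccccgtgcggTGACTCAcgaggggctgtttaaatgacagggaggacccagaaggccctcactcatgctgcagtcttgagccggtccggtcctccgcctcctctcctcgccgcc
Read from the 5′ end, the capitals in the Acta2 window are GGAATG, which is the M-CAT motif CATTCC on the opposite strand, at positions -146 to -141 from the start site, and then the CArG-like boxes CCCTATATGG at -84 to -75 and CCTTGTTTGG at -34 to -25. A CArG-like box here is a CArG box with at most 1 departure among its 6 central A or T bases, so exact boxes are included. Both boxes in the Acta2 window have 1 departure. In the Lrrc15 window the capitals mark the AP-1 motif TGACTCA at -53 to -47, a match to TGANTCA. Both strands were searched, and the motif matches did not overlap. Among 32851 promoter windows of the same length, 1.63% held an exact CArG box, 9.98% a CArG-like box, 14.7% CATTCC and 7.81% TGANTCA. The windows of Cnn1, Postn, Tnc and S100a4 held none of these letters, and a match describes the sequence without showing that a factor binds.

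The contractile genes were the most strongly lowered of the 10 in the KO pieces. Acta2 (ENSMUSG00000035783, GRCm38 chromosome 19, 34241090 to 34255590) encodes smooth muscle alpha-actin, the standard marker of myofibroblasts. Acta2 read 23.3, 27.1 and 36.5 CPM in KO pieces 01, 02 and 03, and 216.8, 486.8, 390.0 and 475.5 CPM in KO+NM1 pieces 01 to 04. Every KO piece was far below every KO+NM1 piece, and the lowest KO+NM1 value was in piece 01. The means were 28.98 ± 6.75 CPM (SD, n = 3) in KO and 392.3 ± 124.7 CPM (SD, n = 4) in KO+NM1, and the edgeR log2 fold change was -3.76 (SE 0.310, adjusted p = 0.000528), which makes KO+NM1 13.5 times the KO level.

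Tagln (ENSMUSG00000032085, chromosome 9, 45929619 to 45936058) encodes transgelin, an actin cross-linker of smooth muscle. It read 15.2, 25.1 and 25.99 CPM in KO and 194.1, 308.6, 224.0 and 332.0 CPM in KO+NM1, again with no overlap. The log2 fold change of Tagln was -3.58 (SE 0.270, edgeR adjusted p = 0.000415), a difference close in size to that of Acta2. Cnn1 (ENSMUSG00000001349, chromosome 9, 22099216 to 22109630) encodes calponin, which binds actin and restrains myosin activity in differentiated smooth muscle. Cnn1 was nearly absent from the KO pieces: it read 0.767, 1.04 and 0.627 CPM there, from 23, 30 and 19 counts. In KO+NM1 it read 14.2, 59.7, 45.8 and 52.2 CPM. The groups lay far apart, the log2 fold change was -5.72 (SE 0.488, edgeR adjusted p = 0.00068), and of the 10 genes Cnn1 had the largest difference, at 52.6-fold.

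The mural cell list moved with these genes. Of its 10 genes, 8 were called lower in KO, beside 20.3% of all genes tested. The summed level of all 10 was 178 to 234 CPM in KO and 669 to 1590 CPM in KO+NM1. None of these markers was at or under 3 counts throughout a group. Set against the mean log2 CPM of that list in the same piece, Acta2 was 1.26 to 1.57 above it in KO and 2.58 to 2.89 above it in KO+NM1. The groups still did not overlap on this relative scale, with KO lower by 1.37 (log2) for Acta2, by 1.24 for Tagln and by 3.09 for Cnn1. Myoepithelial and basal epithelial cells also contain Acta2. Of the 8 genes of the list for these cells, 2 were called lower in KO, beside 20.3% of all genes tested. These 2, Oxtr and Epcam, lay below in every KO piece. The summed level of all 8 genes overlapped between the groups, at 33.6, 811 and 7.63 CPM in KO and 199 to 1155 CPM in KO+NM1. The part of mural or epithelial cells in the levels of the contractile genes was not tested.

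Of the other actin genes, Actg2, the enteric smooth muscle actin, was also called lower in KO (log2 fold change -2.85), with every KO piece below every KO+NM1 piece. Acta1, skeletal muscle actin, read 626.7, 4056 and 3059 CPM in KO and 1.68 to 21.3 CPM in KO+NM1, a log2 fold change of 7.91 (SE 0.964, edgeR adjusted p = 0.00216) in the opposite direction. Cytoplasmic Actg1 was called higher (1.18). Actc1 (-1.33) and cytoplasmic Actb (0.19) were not called. Actb read 3122 to 3398 CPM in KO, 6213 CPM in KO+NM1 piece 01 and 1522 to 1876 CPM in the other KO+NM1 pieces. Of the 50-base stretches of Acta2 transcripts, 0.326% occur in transcripts of another gene, so few reads of that length could be shared. Of the calponin and transgelin relatives, Cnn2 (0.35) and Tagln2 (0.07) were not called. Cnn2 read 181.2 to 238.0 CPM in KO, 449.3 CPM in KO+NM1 piece 01 and 53.4 to 72.3 CPM in the other KO+NM1 pieces. Cnn3 (0.69) passed the adjusted p but stayed under 2-fold, and Tagln3 was not tested. For Tagln, 62.42% of exon bases lie under an antisense gene, Gm48529, that was not counted, and 5.43% under Pcsk7 on the opposite strand. The strand setting of the counting was not given, so reads of Tagln and of transcripts antisense to it cannot be told apart.

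**Figure D2:**
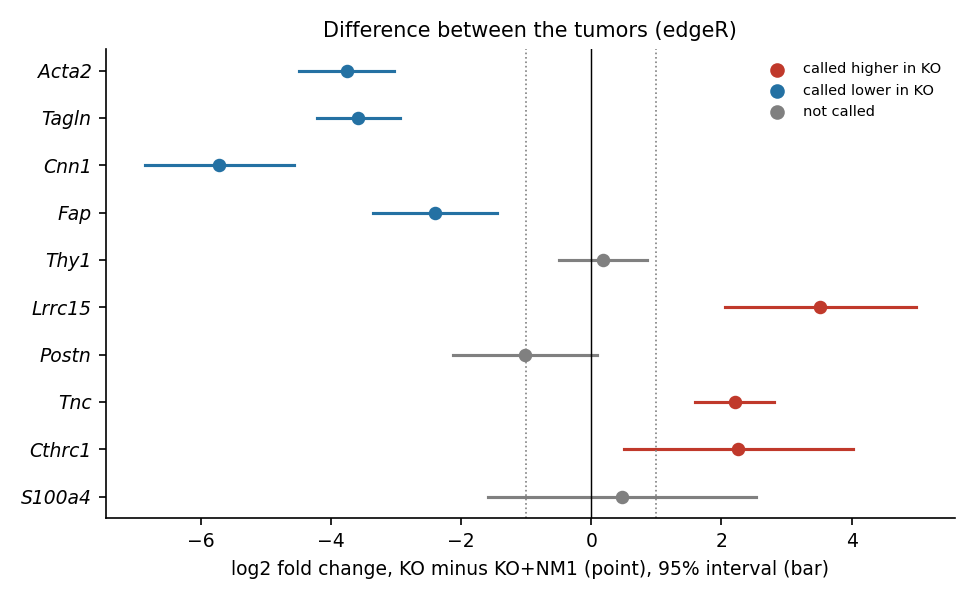
Fitted log2 fold change of each of the 10 genes, KO minus KO+NM1 (edgeR), with bars for the 95% interval and colours for the call. Cnn1 lies furthest below 0, at -5.72, and Lrrc15 furthest above, at 3.52, while the intervals of Thy1, Postn and S100a4 cross 0.

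The 3 cell-surface genes went in different directions. Fap (ENSMUSG00000000392, chromosome 2, 62500943 to 62574075) encodes fibroblast activation protein, a serine protease of activated stroma. Its level was 5.67, 6.26 and 9.31 CPM in KO and 15.6, 49.9, 38.5 and 46.0 CPM in KO+NM1. The groups did not overlap, with KO+NM1 piece 01 nearest to the KO pieces, and the log2 fold change was -2.40 (SE 0.405, edgeR adjusted p = 0.00408). Dpp4, the closest relative of Fap, was called lower as well (-1.38), and 0.526% of the 50-base stretches of Fap occur in another gene's transcripts. Relative to the mural list Fap did not separate the groups, which overlapped with a difference of 0.05 (log2).

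Lrrc15 (ENSMUSG00000052316, chromosome 16, 30269302 to 30283256) encodes a leucine-rich repeat membrane protein that marks TGF-beta-driven cancer-associated fibroblasts. It read 42.4, 55.0 and 87.3 CPM in KO and 1.02, 6.14, 5.34 and 8.96 CPM in KO+NM1. All KO pieces were above all KO+NM1 pieces, and the lowest value of either group was in KO+NM1 piece 01. The log2 fold change was 3.52 (SE 0.625, edgeR adjusted p = 0.0044), 11.5-fold higher in KO and the largest rise among the 10 genes. Thus Acta2 and Lrrc15, both used as myofibroblast markers in tumors, changed by 13.5-fold and 11.5-fold in opposite directions.

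Thy1 (ENSMUSG00000032011, chromosome 9, 44043384 to 44048579) encodes CD90, a glycoprotein of fibroblasts that is also found on T cells. Thy1 read 101.0, 91.1 and 115.2 CPM in KO and 53.9, 115.2, 75.4 and 117.9 CPM in KO+NM1. The groups overlapped, and the log2 fold change was 0.18 (SE 0.288, edgeR adjusted p = 0.635) with a 95% interval from -0.50 to 0.86. This interval leaves room for differences of under 2-fold in either direction. The summed level of 7 T cell genes was 115 to 145 CPM in KO, 187 CPM in KO+NM1 piece 01 and 4.74 to 5.57 CPM in the other KO+NM1 pieces. The part of T cells in the Thy1 level was not tested.

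The secreted matrix genes also divided. Tnc (ENSMUSG00000028364, chromosome 4, 63959785 to 64047015) encodes tenascin C, a matrix glycoprotein of wounds, tumors and tendon. It read 184.4, 141.1 and 232.6 CPM in KO and 51.8, 46.9, 29.3 and 33.9 CPM in KO+NM1. The groups did not overlap, and the log2 fold change was 2.20 (SE 0.260, edgeR adjusted p = 0.000979), 4.596-fold higher in KO. Of 6 tendon genes, 3 (Scx, Mkx and Thbs4) were called higher in KO, and each of them lay above in every KO piece. The summed level of all 6 overlapped between the groups, at 27.3, 79.9 and 127 CPM in KO and 14.1 to 65.6 CPM in KO+NM1. Fmod made 60.7 CPM of that sum in KO+NM1 piece 01. Between the groups, the macrophage list moved with Tnc, with 7 of its 8 genes called higher in KO. The skeletal muscle list did so as well, with 10 of 10, beside 17.1% of all genes tested. In KO pieces 01, 02 and 03 the skeletal muscle sum was 2646, 21540 and 17340 CPM, highest where Tnc was lowest. The macrophage sum was 2263, 2315 and 2589 CPM there, highest where Tnc was highest. The part of tendon, muscle or macrophages in the Tnc level was not tested. Among the relatives of Tnc, Tnxb was called lower (log2 fold change -3.12), Tnn was not called and Tnr was not tested.

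Cthrc1 (ENSMUSG00000054196, chromosome 15, 39076932 to 39087121) encodes a collagen triple helix repeat protein secreted by activated fibroblasts. It was measured at 11.3, 11.5 and 31.5 CPM in KO and at 0.584, 5.86, 3.11 and 5.59 CPM in KO+NM1, where the lowest value rests on 16 counts. All KO pieces were higher, but KO piece 03 stood well above the other KO pieces. The log2 fold change was 2.26 (SE 0.748, edgeR adjusted p = 0.0415), 4.78-fold, and the call was the least firm of the 7: leaving out KO piece 03 gave 1.48 with an adjusted p of 0.189, and leaving out any other single piece except KO+NM1 piece 01 gave adjusted p-values of 0.0615 to 0.0989.

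Postn (ENSMUSG00000027750, chromosome 3, 54361109 to 54391037) encodes periostin, a matricellular protein that is abundant in fibrous tumor stroma. It read 228.4, 298.5 and 441.9 CPM in KO and 269.5, 726.5, 523.7 and 1095 CPM in KO+NM1. KO+NM1 piece 01 lay among the KO pieces and the other 3 lay above all of them. The log2 fold change was -1.02 (SE 0.471, edgeR adjusted p = 0.12), with a 95% interval from -2.13 to 0.09, and Postn was not called. Leaving out KO+NM1 piece 01 gave -1.40 (adjusted p = 0.00741), so this piece decided the call. Its relative Tgfbi was not called (-0.17).

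S100a4 (ENSMUSG00000001020, chromosome 3, 90603771 to 90606045) read 7.93, 9.70 and 7.69 CPM in KO and 18.1, 1.95, 1.73 and 2.59 CPM in KO+NM1. The KO pieces were alike and above 3 of the KO+NM1 pieces, whereas KO+NM1 piece 01 was the highest of all. The log2 fold change was 0.47 (SE 0.876, edgeR adjusted p = 0.68) over all pieces and 1.88 (adjusted p = 0.000367) without KO+NM1 piece 01. That piece also carried the B cell sum of 4125 CPM and the T cell sum of 187 CPM given above, and their part in its S100a4 level was not tested. S100a6, a neighbouring S100 gene, was called higher in KO (1.14), S100a3 was not called (3.72, edgeR adjusted p = 0.0987) and S100a5 was not tested. An overlapping gene on the same strand, Gm42674, covers 51.71% of the S100a4 exon bases and had no counts in any piece, so S100a4 reads there may have been set aside as ambiguous in every library.

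The same piece was often the extreme of its group for several of the 10 genes. KO piece 03 was the highest KO piece for 8 of the 10 genes and the lowest for the other 2, Cnn1 and S100a4. KO piece 01 was the lowest for 6. KO+NM1 piece 01 was the lowest of its group for 8 of the 10 genes and the highest for the other 2, Tnc and S100a4. No share over all genes was taken for these counts. The mean log2 CPM of 12 genes of fibroblasts in general, used as a reference for fibroblast content, was 8.80, 8.54 and 9.10 in KO and 7.97, 9.54, 9.06 and 9.71 in KO+NM1. It was likewise highest in piece 03 among the KO pieces and lowest in piece 01 among the KO+NM1 pieces. This reference overlapped between the groups (8.81 ± 0.277, n = 3, and 9.07 ± 0.784, n = 4).

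Each gene was then expressed relative to that fibroblast reference in its own piece. The differences, KO minus KO+NM1 in log2 units, were -3.45 for Acta2, -5.18 for Cnn1, -2.04 for Fap, 4.04 for Lrrc15 and 2.73 for Cthrc1, each with no overlap between the groups. Tagln, Tnc and these genes thus kept the direction that they had in CPM. Postn, which overlapped in CPM, lay lower in every KO piece on this scale, by 0.64. Thy1 (0.50) and S100a4 (1.47) overlapped on both scales. Relative to the mural list instead, these genes lay higher in every KO piece, by 1.45 for Postn, 2.59 for Thy1 and 3.56 for S100a4. For S100a4 the lowest KO piece (-0.667) lay just above KO+NM1 piece 01 (-0.69). The mean log2 CPM of the mural list itself differed by -2.345, KO minus KO+NM1. A gene of unchanged level would rise by as much on this scale, so these rises are no separate result. Of the 12 reference genes themselves, 2 were called higher and 4 lower in KO, beside 17.1% and 20.3% of all genes tested. The reference is therefore not a fixed yardstick. Col1a1, Col1a2 and Col3a1 are also on the matrix list compared below, and Dcn, Lum and Pdgfra on the resting fibroblast list.

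**Figure D3:**
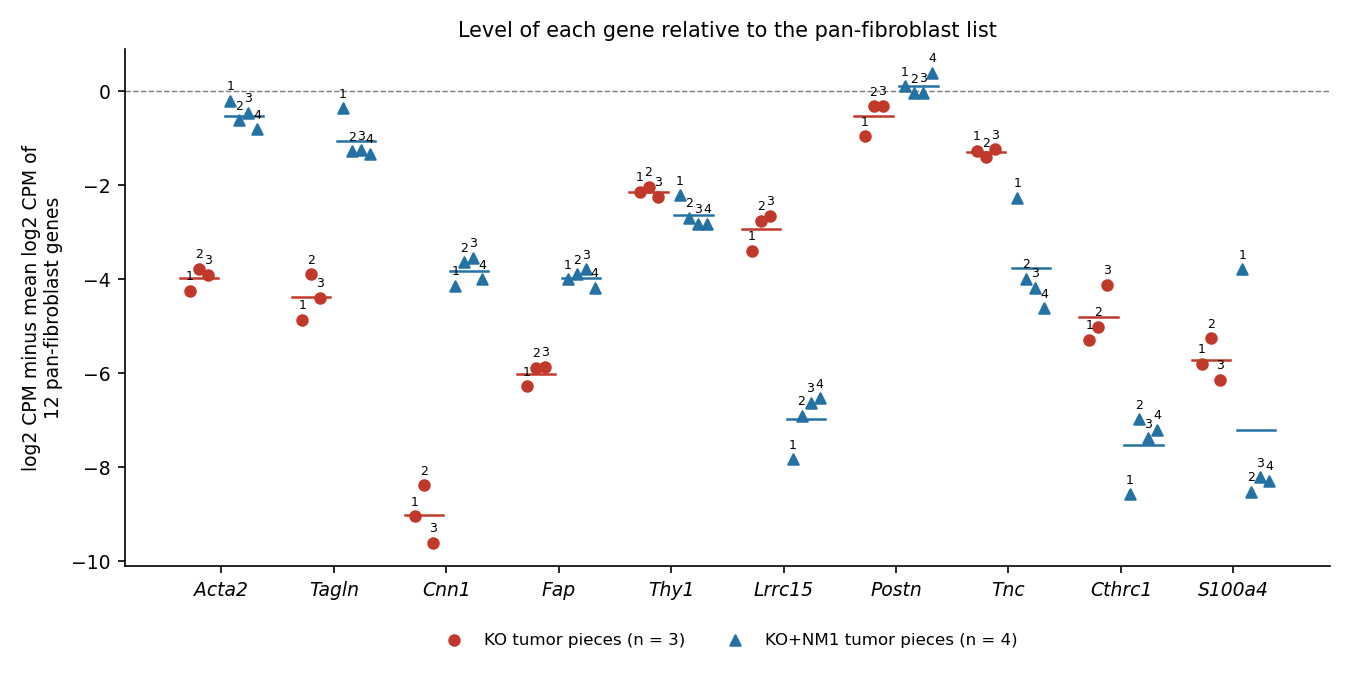
log2 CPM of each of the 10 genes minus the mean log2 CPM of 12 general fibroblast genes in the same piece, KO and KO+NM1 pieces as separate points. Acta2, Tagln, Cnn1, Fap and Postn lie lower in every KO piece, Lrrc15, Tnc and Cthrc1 lie higher, and Thy1 and S100a4 overlap.

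Ratios of reads of different genes within the same piece do not depend on library size or on the normalization. They were chosen after the values were seen and carry no test. For each read of Lrrc15 there were 0.550, 0.494 and 0.418 reads of Acta2 in the KO pieces, and 212.3, 79.2, 73.1 and 53.1 in the KO+NM1 pieces. These genes were seen to move in opposite directions before the ratio was taken, so the separation of the groups is no further result. For each read of Fap there were 7.48 to 9.38 reads of Lrrc15 in KO and 0.0654 to 0.195 in KO+NM1, although both genes are used to mark activated stroma. Among genes that moved the same way, Acta2 reads per Tagln read were 1.08 to 1.53 in KO and 1.12 to 1.74 in KO+NM1, which overlapped. Lrrc15 reads per Cthrc1 read were 2.77 to 4.79 in KO and 1.05 to 1.75 in KO+NM1, and Acta2 reads per Cnn1 read were 26.03 to 58.1 in KO and 8.16 to 15.3 in KO+NM1, neither of which overlapped. Postn reads per Fap read did not overlap either, at 40.3 to 47.7 in KO and 13.6 to 23.8 in KO+NM1.

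When levels were divided by the combined length of all annotated exons of each gene, the order of the 10 genes differed between the tumors. In KO the mean CPM per kb was highest for Postn (37.1) and Thy1 (34.2), then Tnc (23.9), S100a4 (14.5), Acta2 (13.2), Lrrc15 (11.6), Cthrc1 (11.4), Tagln (11.1), Fap (1.25) and Cnn1 (0.297). The piece ranges of neighbours separated between Thy1 and Tnc, Tnc and S100a4, Tagln and Fap, and Fap and Cnn1, and overlapped for the other neighbours. In KO+NM1 the order was led by Acta2 (178.6) and Tagln (133.1), followed by Postn (75.1), Thy1 (30.3), Cnn1 (15.7), S100a4 (10.4), Fap (6.63), Tnc (5.21), Cthrc1 (2.38) and Lrrc15 (1.01). Neighbouring ranges there separated only between Tnc and Cthrc1. The place of S100a4 rests on piece 01, where it read 30.9 CPM per kb, against a lowest piece of 2.96, and it was above Fap in 1 of 4 pieces. The length of S100a4 included the 51.71% of its exon bases shared with Gm42674, so its level per kb may be too low in both tumors. Lrrc15 thus stood last in KO+NM1, and Cnn1 stood last in KO.

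**Figure D4:**
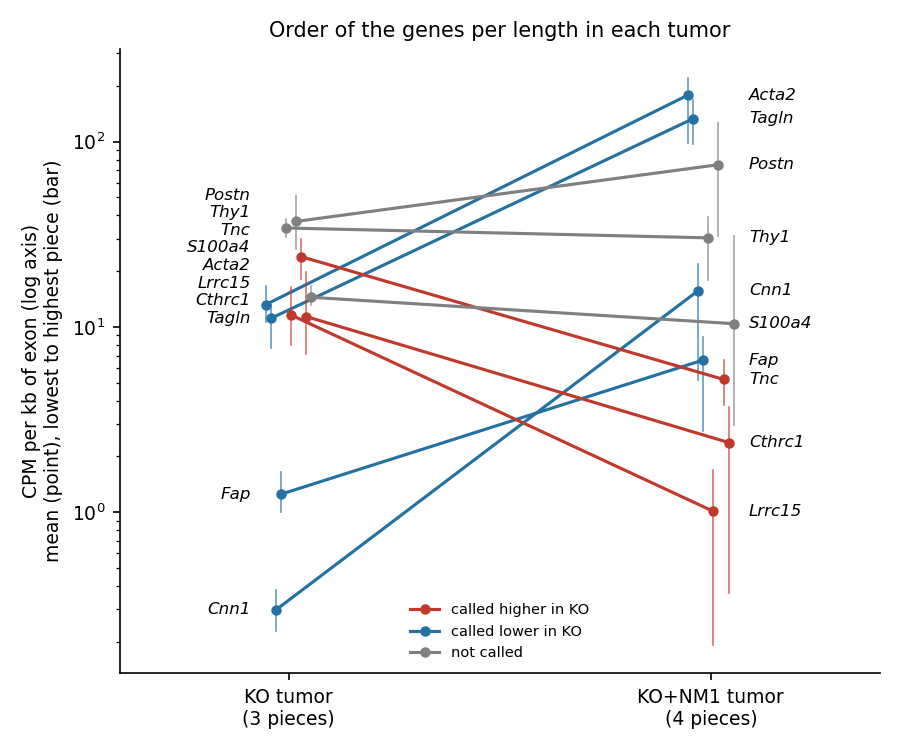
Mean CPM per kb of exon (log axis) of the 10 genes in the KO tumor, left, and the KO+NM1 tumor, right, joined by a line per gene, with bars from the lowest to the highest piece and colours for the call. Acta2 leads in KO+NM1 at 178.6 and holds the fifth place in KO at 13.2.

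The profiles closest to each gene over the 7 libraries were found among 10864 genes with a mean of at least 10 CPM, by the root mean square difference of log2 CPM after each gene's mean was removed. Each match was picked by search among these genes and carries no test, and a shared cell source was not tested. Acta2 was closest to Zfp423 (0.15), Tagln to Myl9, a smooth muscle myosin light chain (0.153), Cnn1 to Rbp7 (0.214), and Fap to Fbln5, an elastic fibre protein (0.125). Among the other genes, Thy1 was closest to Tpbg (0.086), Postn to Islr (0.176), S100a4 to Nup210 (0.15) and Tnc to Slc11a1, a metal transporter of macrophages (0.213). Lrrc15 and Cthrc1 had the most distant matches, which were Flnc, a muscle filamin, at 0.426 and C3ar1, a complement receptor, at 0.57. Within the 10 genes, Acta2 and Tagln were nearest to each other (0.236), and the nearest to Lrrc15 was Cthrc1 (0.716).

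Other genes of the contractile and activation programs were compared as lists. Of 20 smooth muscle contractile and serum response factor genes, 19 were tested, and 6 were called higher and 5 lower in KO. These stand beside 17.1% higher and 20.3% lower over all genes tested. The list also held the regulators Srf, Mrtfa and Mrtfb, which were not called, and Myocd, which was not tested. Mrtfa read 80.9 to 93.8 CPM in KO, 145.4 CPM in KO+NM1 piece 01 and 35.7 to 48.1 CPM in the other KO+NM1 pieces. Srf likewise read 96.55 to 109.7 CPM in KO, 118.1 CPM in KO+NM1 piece 01 and 67.5 to 79.2 CPM in the others. The median log2 fold change of the list was 0.33 and fell to 0.065 without KO piece 01, 0.029 with no filter on low counts and 0.044 with DESeq2, and without KO piece 03 only 3 genes were called higher. Lmod1, which seeds actin filaments in smooth muscle, read 0.933, 1.32 and 1.32 CPM in KO and 11.3 to 34.9 CPM in KO+NM1 (log2 fold change -4.41, SE 0.398, edgeR adjusted p = 0.000701). Myh11, the smooth muscle myosin heavy chain, read 7.63 to 12.3 CPM in KO and 122.9 to 250.3 CPM in KO+NM1 (-4.38), and is also on the mural list. The other genes called lower, listed after their values were seen, were Myl9 (-3.64), Actg2 (-2.85) and Mylk (-2.78).

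The 2 largest rises of that list were in genes that skeletal muscle also makes. Des, desmin, read 114.7, 1515 and 1010 CPM in KO and 31.1 to 165.8 CPM in KO+NM1 (log2 fold change 3.63, SE 0.895, edgeR adjusted p = 0.0168), with KO piece 01 among the KO+NM1 pieces. Tpm1, a tropomyosin, read 675.5, 2142 and 1874 CPM in KO and 176.2 to 230.5 CPM in KO+NM1 (2.94). In both genes KO piece 01 was the lowest KO piece, as it was for the skeletal muscle sum, which was 2646 CPM there and 21540 and 17340 CPM in KO pieces 02 and 03. The skeletal muscle list was called higher for 10 of 10 genes, 4 of them (Myh4, Ckm, Pvalb and Xirp2) at or under 3 counts in every KO+NM1 piece, and its part in Des and Tpm1 was not tested. The other rises of the smooth muscle list, named after their values were seen, were Tpm2 (1.735), Flna (1.66), Vcl (1.46) and Pdlim7 (1.12). KO piece 01 was the lowest KO piece for Tpm2 and Pdlim7 and the highest for Flna and Vcl.

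Of 22 matrix genes of activated fibroblasts, all tested, 4 were called higher in KO and 0 lower by edgeR. Of all genes, 17.1% were called higher and 20.3% lower, so the share of rises is near that of genes in general and the share of falls is below it. The list's median, 0.128, was -0.203 without KO+NM1 piece 01 and -0.039 with upper-quartile scaling. At an unadjusted p under 0.05, 5 were higher and 0 lower, and limma voom called 1 lower. Without KO+NM1 piece 01, 2 were called lower by edgeR. Col12a1, a fibril-associated collagen, read 216.4, 128.2 and 307.5 CPM in KO and 9.14 to 14.5 CPM in KO+NM1, without overlap (log2 fold change 4.13, SE 0.308, edgeR adjusted p = 0.000348). Pdpn, podoplanin of activated fibroblasts and lymphatic vessels, read 41.4 to 69.1 CPM in KO and 10.3 to 17.9 CPM in KO+NM1 (2.00). The other rises, listed after their values were seen, were Inhba (2.58) and Loxl2 (1.42). Col1a1, the main fibrillar collagen chain, had a log2 fold change of 1.42 and missed the threshold (edgeR adjusted p = 0.0514).

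TGF-beta is the best known inducer of myofibroblasts. Of 20 genes of its pathway, 3 were called higher and 4 lower in KO (median 0.083), near the 17.1% and 20.3% of all genes. The median was -0.177 without KO piece 01 and -0.068 with upper-quartile scaling. Among the activators, Itgav, an integrin subunit that releases latent TGF-beta, read 123.1 to 163.5 CPM in KO and 21.99 to 41.5 CPM in KO+NM1 (log2 fold change 2.07, SE 0.230, edgeR adjusted p = 0.000805). Ltbp2, a latent TGF-beta binding protein family member, read 4.87 to 6.80 CPM in KO and 88.2 to 162.0 CPM in KO+NM1 (-4.48, SE 0.254, edgeR adjusted p = 0.000229). Tgfbr3, the betaglycan co-receptor, read 26.4 to 28.8 CPM in KO and 69.9 to 188.4 CPM in KO+NM1 (-2.34). Further called genes, listed after their values were seen, were the integrin subunit Itgb8 (-2.35), the ligand Tgfb3 (-2.02) and the latent TGF-beta binding protein Ltbp1 (1.10). The ligand Tgfb1 (0.08) was not called, nor was the target Ccn2 (-1.28, edgeR adjusted p = 0.0812). Tgfb1 read 108.5 to 155.0 CPM in KO, 283.0 CPM in KO+NM1 piece 01 and 55.98 to 75.6 CPM in the other KO+NM1 pieces.

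Most genes of resting fibroblasts were lower in the KO tumor. Of 18 listed, 17 were tested, 12 were called lower in KO, beside 20.3% of all genes, and 0 higher by edgeR, with 13 lower and 0 higher at an unadjusted p under 0.05 and 0 higher by DESeq2 or limma voom. The median was -1.99. Dpt, dermatopontin, read 36.8, 31.8 and 65.1 CPM in KO and 124.2, 1108, 905.0 and 908.9 CPM in KO+NM1 (log2 fold change -4.09, SE 0.663, edgeR adjusted p = 0.00496). Gsn, an actin-severing protein abundant in fibroblasts of connective tissue, read 326.8 to 350.1 CPM in KO and 2136 to 14660 CPM in KO+NM1 (-4.95). The white adipocyte list moved with these genes, with 10 of 10 called lower in KO and the sums given above, and its part in the fall was not tested.

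**Figure D5:**
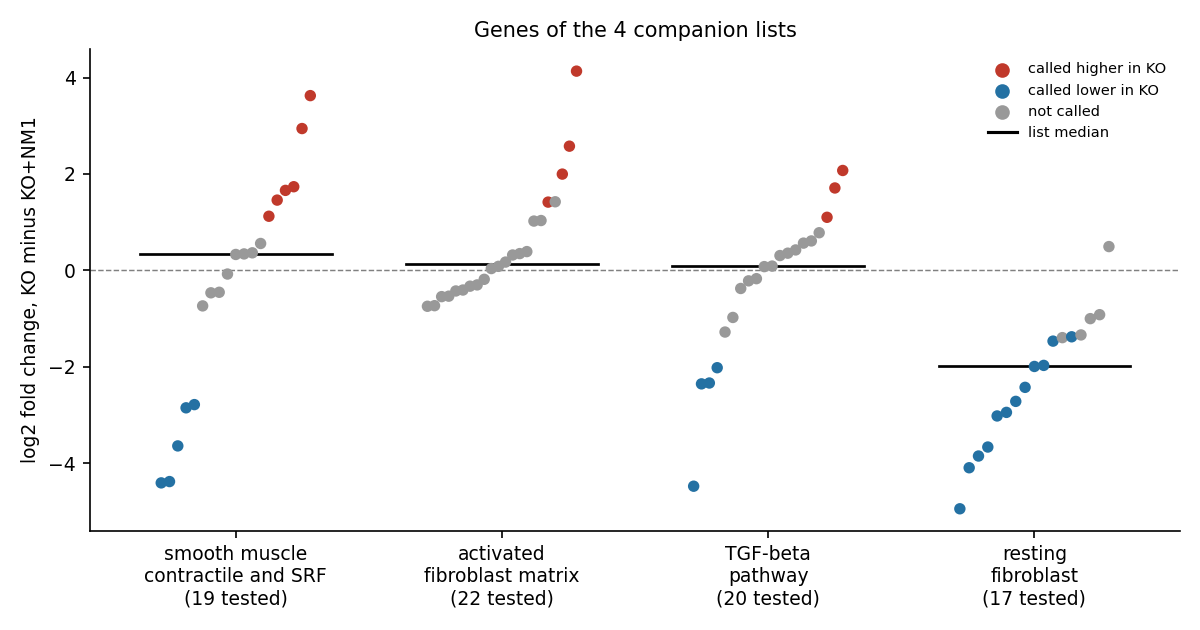
Fitted log2 fold changes, KO minus KO+NM1, of the tested genes of the 4 lists (smooth muscle contractile and serum response factor genes, activated fibroblast matrix, TGF-beta pathway, resting fibroblast), with colour for the call and a line at each list's median. The resting fibroblast genes lie mostly below 0 with a median of -1.99, and the other lists spread to both sides.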

How the data were processed

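Counts per Ensembl gene for 7 tumor libraries (NEBNext Ultra II, NextSeq) were used as deposited. According to the labels and methods, the authors trimmed reads with Trimmomatic 0.36, aligned them to mouse GRCm38 with HISAT2 2.0.4, and made these raw counts with HTSeq. The submitters' processing notes add SAMtools 0.1.19 and FastQC. The annotation release and strand setting are not given in the sources used here, and 1 deposited count was made per gene without isoforms. Symbols and exon lengths came from GENCODE M21, which matched all 10 genes.

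Genes passing edgeR's filterByExpr (minimum count 10) were normalized by TMM and tested with the quasi-likelihood F-test (edgeR 4.0.16, R 4.3.3), KO against KO+NM1, with Benjamini-Hochberg adjustment over 16887 genes. The thresholds were those of the study (adjusted p 0.05, 2-fold). SEs came from the fitted model with its moderated dispersion, and log2 CPM used a prior count of 2. DESeq2 1.42.0, limma 3.58.1 (voom with quality weights), other normalizations and filters, a replicate block and leaving out each piece were alternatives. Libraries within a group differed by more than sampling noise, so none was counted as a duplicate.

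From each companion list, up to 2 largest rises and 2 largest falls among called genes with a mean of at least 5 CPM were named, plus Myo1c, relatives of the 10 genes and the closest profile of each. A gene that this rule names in the TGF-beta list is counted there but is not reported here. The 10 genes and the lists were chosen with earlier results of these data known.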

Additional observations from a re-analysis of the deposited data

Results flagged for a closer look

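In the KO+NM1 group of 4 pieces, S100a4 in piece 01 (18.1 CPM, against 1.73 to 2.59 CPM in the other pieces) lay far from the rest: its gap to the nearest piece was 0.947 of the whole range, above Dixon's critical value of 0.829. The 10 genes were each tested this way in this group, and chance flags about 1 group in 20. The KO group of 3 pieces was not tested. The summed level of 5 B cell genes was 4125 CPM in that piece and at most 16.95 CPM in the other KO+NM1 pieces, and its part in the S100a4 level was not tested.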

How the results depend on the processing

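Under 17 alternatives, Acta2, Tagln, Cnn1, Fap, Lrrc15 and Tnc kept their direction and call. Leaving out a piece each time, Acta2 ranged from -4.08 to -3.66, Cnn1 from -6.14 to -5.54 and Lrrc15 from 3.05 to 3.87 (log2). Cthrc1 lost its call in 10 alternatives, among them DESeq2 size factors (adjusted p = 0.0504), upper-quartile scaling (0.0561) and no filter (0.0604). S100a4 (1.97) and Postn (-1.03) were called by limma voom with quality weights. Thy1, never called, changed sign with voom (-0.0048), without KO piece 03 (-0.03) and without KO+NM1 piece 01 (-0.13), and reached 0.31 without KO+NM1 piece 04. Replicate numbers did not pair the pieces (correlations of deviations 0.0802, 0.102 and -0.0165). With a replicate block, 2 of the 10 genes were called higher and 4 lower, with Cthrc1 losing its call (2.86, edgeR adjusted p = 0.0592), and over all genes 2437 were called higher and 2493 lower. Leaving out single pieces gave 2 to 4 of the 10 genes higher and 4 to 5 lower.

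Over the same omissions the smooth muscle list had 3 to 6 genes called higher and the matrix list 0 to 2 lower, with 1 lower by voom. The resting fibroblast list had 9 to 16 genes called lower over these omissions and 8 with the replicate block. The TGF-beta list had 5 higher by adjusted p alone, and its median, 0.083, ranged from -0.177 (without KO piece 01) to 0.052. Library size alone moved the median log2 fold change of all genes by 0.179, upper-quartile scaling by -0.158 and size factors by -0.1. With 3 and 4 pieces, possibly of 1 tumor each, variation between tumors could not be measured.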
